A study of Rattus norvegicus with 66 samples.

Results

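The transcripts of 10 serotonin (5-HT) receptor genes, Htr1a, Htr1b, Htr1d, Htr1f, Htr2a, Htr2c, Htr4, Htr5b, Htr6 and Htr7, were followed in the dorsal hippocampus of Long Evans rat pups. They were picked from 37777 gene entries by their symbols, and each symbol had 1 entry. The tissue, taken on postnatal day (PND) 6 with a little of the neocortex beside it, came from 64 pups (41 males and 23 females) and gave 66 RNA-seq libraries with totals of 10644138 to 86206550 counts. Dams had received Aroclor 1254, a commercial mixture of polychlorinated biphenyls, or bisphenol A, a plasticizer monomer, in chow, or the organophosphate insecticide chlorpyrifos by subcutaneous injection, and the pups were still being exposed at dissection. Dams of feeding controls (CONF) got chow alone, and those of injection controls (CONSC) got vehicle injections.

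Males belonged to 8 groups: CONF (4 pups), CONSC (5), Aroclor 1254 at 0.5 mg/kg (Aro0.5, 4) and 5 mg/kg (Aro5, 6), bisphenol A at 0.5 mg/kg (BPA0.5, 4) and 5 mg/kg (BPA5, 7), and chlorpyrifos at 1 mg/kg (CPF1, 4) and 3 mg/kg (CPF3, 7). The 5 female groups held 5 pups each (CONF, CONSC and Aro5) or 4 pups each (BPA5 and CPF3). The pups came from 44 litters, and 38 pups shared a litter with at least 1 other. CONF and CONSC were combined within each sex (9 males and 10 females) for all comparisons with treated pups. Library names were written in 2 forms, which were read for males and control females but not for the 13 libraries of treated females. In males the first form was that of every low-dose library and of 9 control libraries, and the second that of every high-dose library and 1 control library, so that name form and high dose cannot be told apart there except through the control pup N2-2y, which had a library of each form.

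Serotonin reaches the hippocampus through axons of the raphe nuclei in the brain stem, and receptors on pyramidal cells, interneurons and afferent axons translate it into opposing signals. The Htr1 receptors and the Htr5 receptors couple mainly to inhibitory G proteins, Htr2a and Htr2c to Gq and phospholipase C, and Htr4, Htr6 and Htr7 to Gs and adenylyl cyclase. During the first postnatal days serotonin also acts on the growth of axons and dendrites, before most synapses are formed.

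Levels are given as CPM, counts per 1000000 counts of the pup's libraries. Transcript lengths were not used here, so levels were compared between pups and not between genes. Of the 10 genes, 9 were detected in every pup. Among receptors of the Htr1 class, Htr1a, the somatodendritic autoreceptor of raphe neurons and a postsynaptic receptor of hippocampal pyramidal cells, had 2.04 ± 0.687 CPM (SD, n = 64), from 0.846 CPM in a BPA0.5 male to 4.68 CPM in a BPA5 female. Htr1b, a presynaptic receptor on axon terminals, had 9.87 ± 3.69 CPM (SD, n = 64; 4.68 to 23.9). Its close relative Htr1d had 1.43 ± 0.705 CPM (SD, n = 64; 0.403 to 3.84). Htr1f had 0.703 ± 0.406 CPM (SD, n = 64), with 2 to 48 counts per pup.

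Of the Gq-coupled receptors, Htr2a had 1.83 ± 1.19 CPM (SD, n = 64; 0.299 to 6.24), a 20.8-fold range between pups that was the widest of the 9 genes. Htr2c, a receptor well known from the choroid plexus and from neurons of many regions, had 52.9 ± 14.1 CPM (SD, n = 64; 30.1 to 99.2), with 509 to 3032 counts per pup and the narrowest range, 3.29-fold. Of the Gs-coupled receptors, Htr4 had 3.60 ± 1.09 CPM (SD, n = 64; 0.935 to 6.01) and Htr6 had 2.32 ± 1.22 CPM (SD, n = 64; 0.932 to 6.80). Htr5b had 1.88 ± 0.845 CPM (SD, n = 64; 0.267 to 4.81).

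Htr7 had 0 counts in all 66 libraries. A count of 0 allows up to 3 counts, which correspond to 0.0348 CPM in the deepest and 0.282 CPM in the shallowest library (counting error only). The entry was 1 of 8139 without a count in any library, so its level can also depend on the annotation or on how reads were assigned, which was not tested, and no comparison was made for it.

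**Figure D1:**
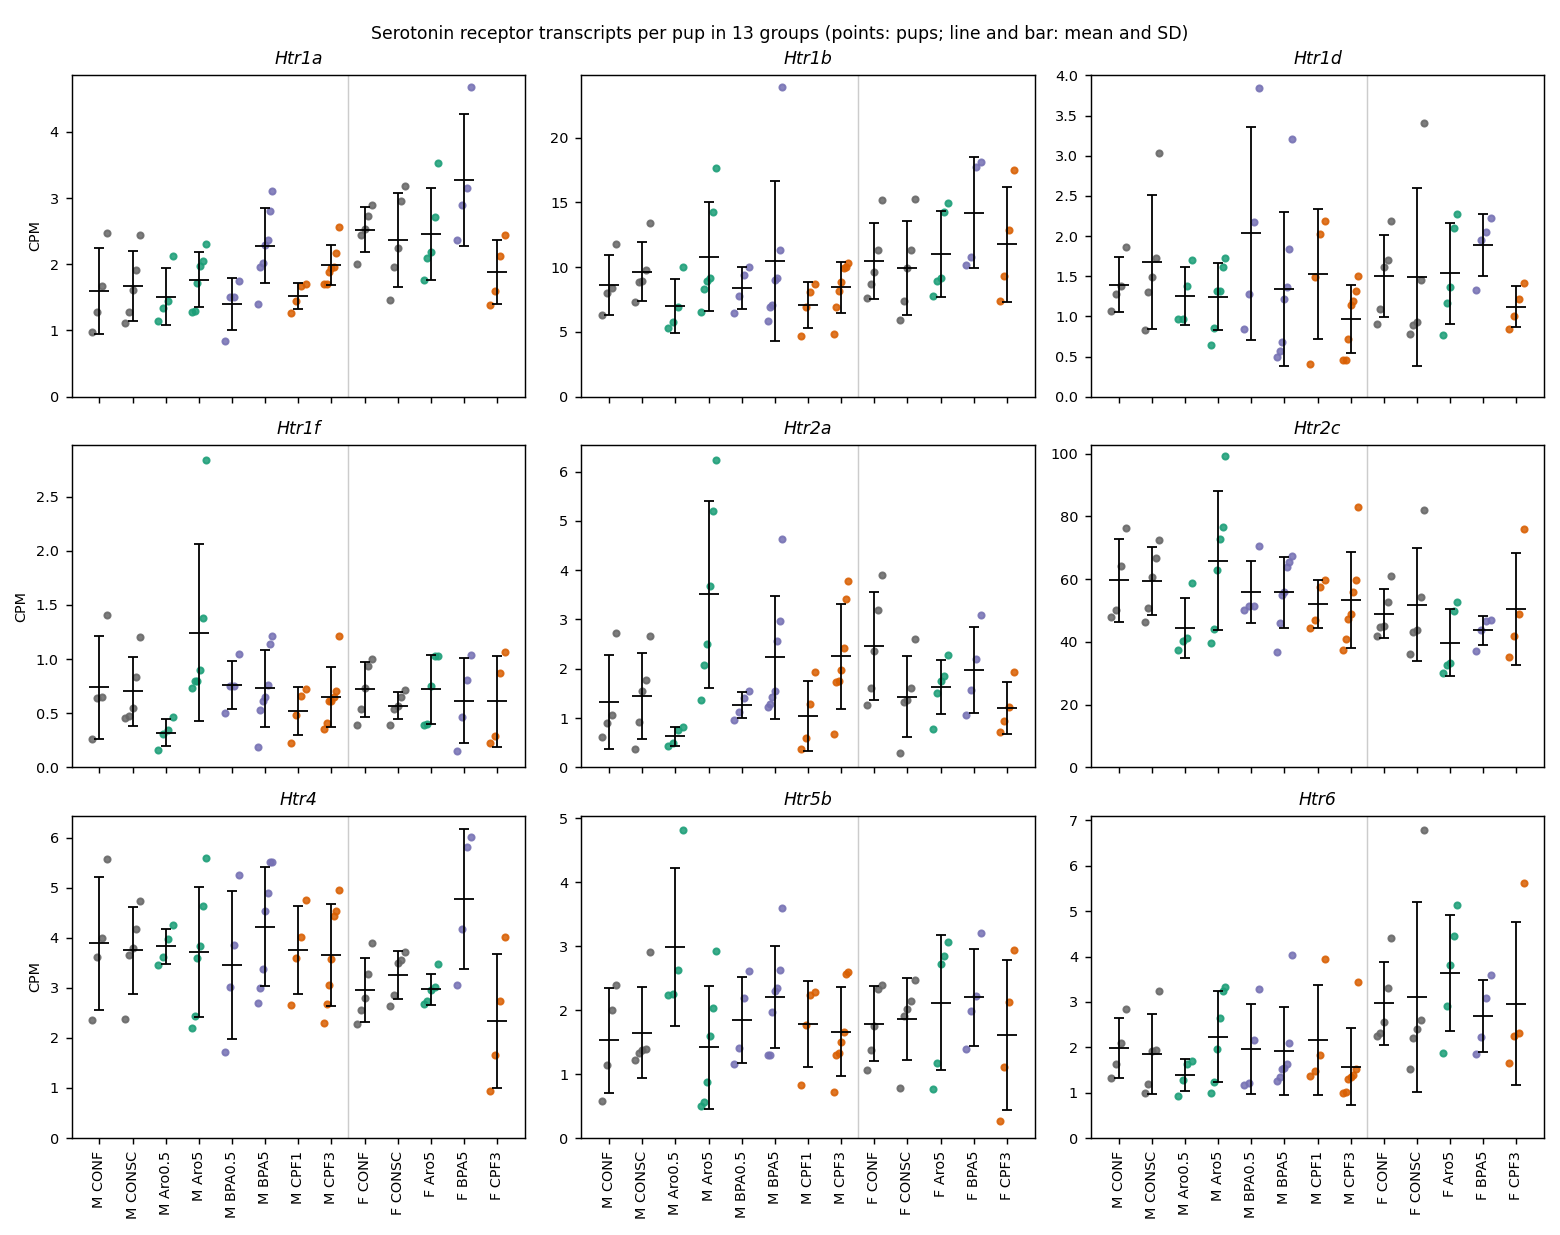
CPM of the 9 detected receptor genes (1 panel each, linear axis from 0) in the 8 male (M) and 5 female (F) groups. Points are pups, the horizontal mark is the mean and the bar the SD. Group means differed by 1.66-fold (Htr2c) to 5.61-fold (Htr2a), with pups of neighbouring groups overlapping.

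When the 13 groups were ordered by their mean, none of the 12 steps between neighbours exceeded the larger of their SDs, for any of the 9 genes. Ordering by the mean keeps such steps small, so this does not show that the groups were alike. Groups at the ends of the order lay further apart. Htr2a was lowest in Aro0.5 males, 0.626 ± 0.192 CPM (SD, n = 4), and highest in Aro5 males, 3.51 ± 1.90 CPM (SD, n = 6). The same groups held the ends for Htr1f, with 0.320 ± 0.124 CPM (SD, n = 4) and 1.24 ± 0.818 CPM (SD, n = 6). They stood in the opposite order for Htr5b, which had 2.98 ± 1.23 CPM (SD, n = 4) in Aro0.5 males and 1.42 ± 0.955 CPM (SD, n = 6) in Aro5 males. Htr1a and Htr1b were highest in BPA5 females, with 3.27 ± 0.990 CPM and 14.2 ± 4.30 CPM (SD, n = 4). Htr4 was also highest there, at 4.77 ± 1.40 CPM, and lowest in CPF3 females, at 2.34 ± 1.35 CPM (SD, n = 4 each). Within groups, the SD between pups was 25.6% of the mean for Htr2c, 26.5% for Htr1a and 28.8% for Htr4, 44.6% for Htr5b, 55.3% for Htr1f and 56% for Htr2a.

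The chlorpyrifos groups were the first comparison of interest. Levels of the 9 receptors in CPF3 males overlapped with those of control males for every gene. Htr1d varied from 0.460 to 1.502 CPM in the 7 CPF3 males (median 1.14) and from 0.831 to 3.04 CPM in the 9 controls (median 1.37), a log2 fold change of -0.65 ± 0.35 (SE; 95% interval -1.37 to 0.07). This did not pass in the quasi-likelihood test of edgeR, with p values adjusted after Benjamini and Hochberg over all genes tested (adjusted p = 0.44). Htr2a varied from 0.67 to 3.78 CPM (median 1.97) against 0.364 to 2.72 CPM in controls (median 1.07), a log2 fold change of 0.63 ± 0.38 (SE; interval -0.14 to 1.40; adjusted p = 0.481, edgeR). Htr1a had 1.70 to 2.57 CPM (median 1.94) against 0.9748 to 2.48 CPM (median 1.61), a log2 fold change of 0.28 ± 0.19 (SE; interval -0.10 to 0.67; adjusted p = 0.524, edgeR). Of the 7 CPF3 males, 3 lay below every control for Htr1d, 2 above every control for Htr2a and 1 above for Htr1a, and the others lay within the control range.

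The other 6 receptors had smaller differences in CPF3 males. For Htr6 the log2 fold change was -0.24 ± 0.31 (SE; 95% interval -0.88 to 0.40; adjusted p = 0.763, edgeR), for Htr1f it was -0.15 ± 0.36 (interval -0.89 to 0.59; adjusted p = 0.884), and for Htr2c it was -0.15 ± 0.17 (interval -0.50 to 0.20; adjusted p = 0.724). Htr1b, Htr4 and Htr5b had log2 fold changes of -0.12 ± 0.24, -0.05 ± 0.21 and 0.10 ± 0.35, with adjusted p values of 0.863, 0.942 and 0.921 (edgeR) and intervals of -0.61 to 0.38, -0.48 to 0.39 and -0.60 to 0.81. No receptor passed an adjusted p of 0.05 by edgeR or by DESeq2, and none had an unadjusted p under 0.05, where 0.159% of the 16393 genes tested passed the adjusted threshold by edgeR and 12.6% had an unadjusted p under 0.05. When the name form entered the model, with no term for the pup, CPF3 males were in effect set against 1 control library, the second-form library of N2-2y. The log2 fold changes were then -0.11 for Htr1d, -0.16 for Htr1a, -0.01 for Htr2a, -0.57 for Htr1b and -0.62 for Htr6. They were 0.08 for Htr4, -0.33 for Htr2c, -1.20 for Htr1f and 1.17 for Htr5b. Among control males, N2-2y had the highest Htr2a and Htr1f levels and the lowest Htr5b level. Without the CPF3 male 45-1y, which had the highest Htr6 level and the highest striatal marker sum of its group, the value of Htr6 was -0.59 and that of Htr1f -0.38. The striatal marker sum had a median of 138 CPM in CPF3 males and 348 CPM in control males, and its part in the receptor levels was not tested.

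In CPF1 males, 4 pups, no receptor passed by edgeR or DESeq2 or had an unadjusted p under 0.05, and 0% of 16139 genes passed (322 had an unadjusted p under 0.05). The smallest unadjusted p was that of Htr1b, with 4.68, 6.92, 8.05 and 8.74 CPM in the 4 pups against 6.34 to 13.45 CPM in controls (median 8.87), a log2 fold change of -0.36 ± 0.19 (SE; 95% interval -0.75 to 0.03; adjusted p = 0.997, edgeR). Log2 fold changes (± SE) of the others were -0.48 ± 0.38 for Htr1f, -0.44 ± 0.42 for Htr2a, -0.18 ± 0.14 for Htr2c, -0.09 ± 0.24 for Htr1a and -0.01 ± 0.23 for Htr4. Those above 0 were 0.24 ± 0.32 for Htr6, 0.22 ± 0.36 for Htr5b and 0.03 ± 0.37 for Htr1d, and the adjusted p was 0.997 for every receptor (edgeR). The intervals were widest for Htr2a, from -1.30 to 0.42, and narrowest for Htr2c, from -0.47 to 0.10.

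In CPF3 females, 4 pups, no receptor passed either, by edgeR or DESeq2, and none had an unadjusted p under 0.05, with 0% of 16992 genes passing by edgeR (1493 had an unadjusted p under 0.05, and DESeq2 called 3 genes, no receptor). Htr4 had 0.935, 1.65, 2.74 and 4.02 CPM in these pups, against 2.28 to 3.89 CPM in the 10 control females (median 3.06), with a log2 fold change of -0.38 ± 0.24 (SE; 95% interval -0.86 to 0.11; adjusted p = 0.646, edgeR). Htr2a had 0.713, 0.946, 1.23 and 1.94 CPM against 0.299 to 3.89 CPM (median 1.61), a log2 fold change of -0.67 ± 0.43 (SE; interval -1.55 to 0.21; adjusted p = 0.655, edgeR). Against the 5 CONSC females alone the value of Htr2a was -0.18. Of the 4 CPF3 females, 2 lay below all control females for Htr4, and none did for Htr2a. Htr1a and Htr1d had log2 fold changes of -0.30 ± 0.22 (SE; interval -0.76 to 0.16; adjusted p = 0.712, edgeR) and -0.41 ± 0.34 (interval -1.11 to 0.29; adjusted p = 0.736). For Htr1f, Htr6 and Htr5b the values were -0.31 ± 0.41, -0.06 ± 0.33 and -0.02 ± 0.39 (adjusted p = 0.85, 0.97 and 0.991, edgeR). For Htr1b and Htr2c they were 0.19 ± 0.24 and 0.01 ± 0.18 (adjusted p = 0.834 and 0.989, edgeR). Pup 38-5x had the lowest Htr4 and Htr5b and the highest Htr6 level of these 4, and without it the value of Htr4 was -0.14, that of Htr5b 0.29 and that of Htr6 -0.49.

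**Figure D2:**
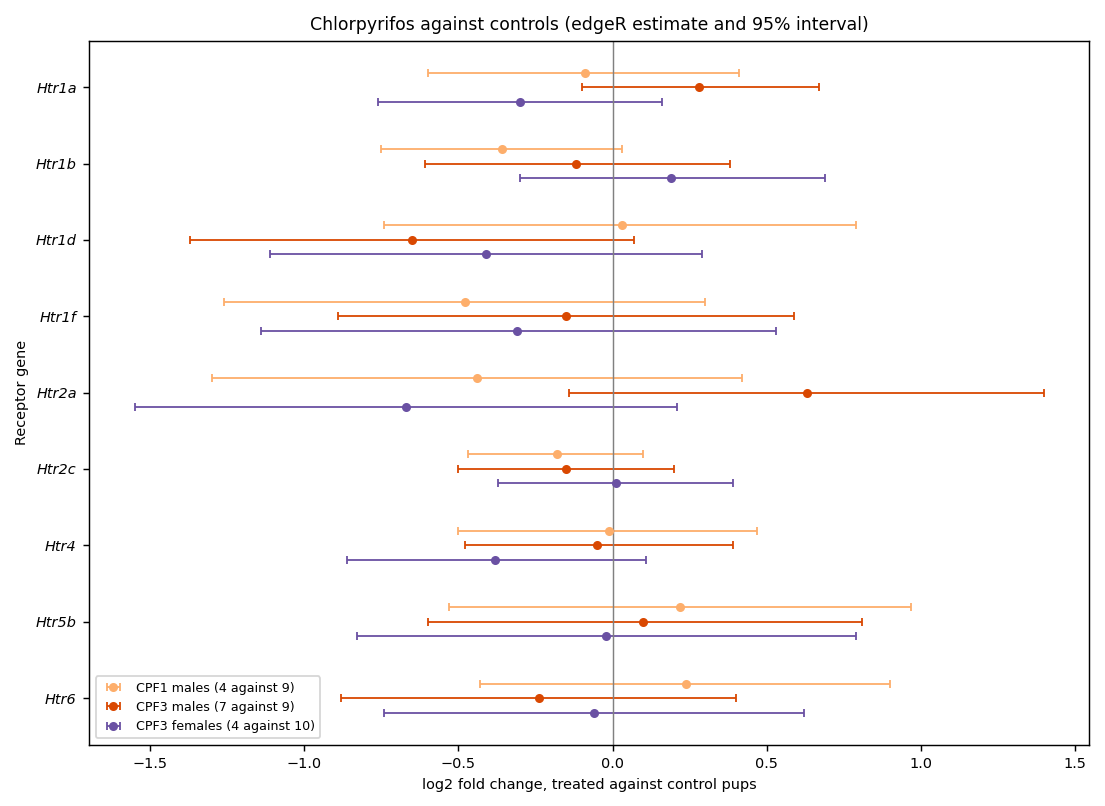
Log2 fold change of each detected receptor in chlorpyrifos pups against control pups of the same sex (edgeR), with its 95% interval, for CPF1 males (4 against 9 pups), CPF3 males (7 against 9) and CPF3 females (4 against 10). Every interval includes 0.

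For Htr2a, Htr1a and Htr1b, the estimates in CPF3 males and CPF3 females had opposite signs, with every interval including 0. Signs also differed for Htr2c and Htr5b, but the female values were near 0 (0.01 and -0.02). Without pup 38-5x the female value of Htr1b was -0.04. With the name form in the model, CPF3 males had -0.01 for Htr2a and -0.16 for Htr1a, in effect against 1 control library. The sex by CPF3 interaction, fitted over 52 control and high-dose pups, was -1.32 ± 0.60 (SE; 95% interval -2.52 to -0.11) for Htr2a and -0.60 ± 0.29 (interval -1.18 to -0.01) for Htr1a on the log2 scale, with unadjusted p values of 0.0331 and 0.0473 and an adjusted p of 0.872 for both (edgeR). No receptor passed by edgeR or DESeq2, where 0.0463% of 17282 genes passed by edgeR and 5.6% had an unadjusted p under 0.05. CPF3 males were also set against the other high-dose males. Htr1f was lower in CPF3 than in Aro5 males, with 0.358 to 1.21 CPM (median 0.614) against 0.735 to 2.84 CPM (median 0.848), at a log2 fold change of -0.83 ± 0.37 (SE) that did not pass (unadjusted p = 0.0308, adjusted p = 0.943, edgeR). Without the Aro5 male 120-2y the value was -0.46. The groups overlapped, and 0% of 16393 genes passed in CPF3 against Aro5 (684 had an unadjusted p under 0.05), as in CPF3 against BPA5 (0%, 442 genes), by edgeR and by DESeq2. In the latter no receptor had an unadjusted p under 0.05.

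In Aro5 males, Htr2a had the largest difference of any receptor in a high-dose group. The 6 pups had 1.37 to 6.24 CPM (median 3.095) and the 9 controls 0.364 to 2.72 CPM (median 1.07), so that 3 Aro5 pups lay above every control. The log2 fold change was 1.25 ± 0.38 (SE; 95% interval 0.48 to 2.02), with an unadjusted p of 0.00245 and an adjusted p of 0.211 (edgeR). Among the 35 alternatives, Htr2a passed only without pups dissected outside the window from 10.30 to 13.20 h (log2 fold change 1.85, adjusted p = 0.0297, edgeR). Among those left out were Aro5 males 108-1y and 117-4y, which had the lowest Htr2a levels of their group. Also left out were CONSC males 10-2y, 13-1y and 6-5y, which had the highest Htr2a levels of theirs. The littermates 120-1y and 120-2y stayed. Pup 120-2y had the highest Htr2a level of all pups, 6.24 CPM. With the name form as a covariate the log2 fold change was 0.61. That fit in effect set Aro5 males against 1 library of N2-2y, the control male with the highest Htr2a level. The unadjusted p of every other receptor was above 0.05. None passed by edgeR or DESeq2, and 0.195% of 16393 genes passed by edgeR. The summed level of 8 neocortical marker genes was 437 to 546 CPM in Aro5 males and 319.7 to 458 CPM in male controls, and that of 6 CA1 pyramidal cell markers, with Fibcd1 at 0, was 464 to 907 against 313 to 703 CPM. None of the tested genes of either list passed, and the part of these in the level of Htr2a was not tested. In bulk tissue, fewer cells of a type and less RNA per cell cannot be told apart.

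In Aro5 females, Htr2a had 0.780 to 2.27 CPM (median 1.74) against 0.299 to 3.89 CPM in controls. The sex by Aro5 interaction of Htr2a was -1.51 ± 0.56 (SE; 95% interval -2.63 to -0.38) on the log2 scale (unadjusted p = 0.00973, adjusted p = 0.405, edgeR; 0.0526 to 0.646 over 5 alternatives), and no receptor passed by edgeR or DESeq2, where 0.0984% of 17282 genes passed by edgeR. Aro5 females had no receptor with an unadjusted p under 0.05, and 0% of 16992 genes passed in that contrast by edgeR (548 had an unadjusted p under 0.05, and DESeq2 called 1 gene, no receptor).

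The low dose of Aroclor 1254 had 4 receptors with an unadjusted p under 0.05, in a contrast where 18.5% of the 16139 genes tested had one and 0.124% passed. Htr5b was higher in Aro0.5 males, with 2.24, 2.25, 2.63 and 4.81 CPM against 0.585 to 2.91 CPM in controls (median 1.37), and a log2 fold change of 1.06 ± 0.31 (SE; unadjusted p = 0.00266, adjusted p = 0.13, edgeR). Htr1f was lower, with 0.162, 0.312, 0.341 and 0.4645 CPM against 0.265 to 1.40 CPM (median 0.642), at -1.15 ± 0.36 (unadjusted p = 0.00441, adjusted p = 0.145). Htr2a was lower as well, at 0.437, 0.486, 0.759 and 0.822 CPM against 0.364 to 2.72 CPM (median 1.07), with a log2 fold change of -1.17 ± 0.41 (unadjusted p = 0.00931, adjusted p = 0.167). Htr2c had 37.5, 40.4, 41.1 and 58.75 CPM against 46.3 to 76.3 CPM (median 60.7), with a log2 fold change of -0.36 ± 0.14 (unadjusted p = 0.0149, adjusted p = 0.194, edgeR). All 4 genes overlapped with controls in at least 1 pup, and none passed by edgeR or DESeq2.

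Without control CONSC 8-4y, which had the highest Htr5b level of its group, the adjusted p of Htr5b in Aro0.5 males was 0.0447 (edgeR), with 0.0447 to 0.478 over 29 alternatives. Levels of marker lists differed in the same pups. The summed level of 7 striatal marker genes was 91.7 to 282 CPM in Aro0.5 males and 103 to 539 CPM in male controls, and all 7 had an unadjusted p under 0.05 with a median log2 fold change of -1.01. The 8 thalamic markers summed to 888 to 1501 CPM against 579 to 1509 CPM, and 6 of them had an unadjusted p under 0.05 (median log2 fold change 0.56). None of the striatal and thalamic markers passed the adjusted threshold, and their part in the receptor levels was not tested.

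Bisphenol A at the high dose went with a higher Htr1a estimate in males. The 7 BPA5 males had 1.40 to 3.11 CPM (median 2.29) and the controls 0.9748 to 2.48 CPM (median 1.61), a log2 fold change of 0.49 ± 0.18 (SE; 95% interval 0.11 to 0.86; unadjusted p = 0.0122, adjusted p = 0.47, edgeR). The value was 0.04 with the name form as a covariate, in effect against 1 library of control N2-2y. No receptor passed by edgeR or DESeq2, against 0.189% of 16393 genes by edgeR. In BPA5 females Htr4 had 3.06, 4.185, 5.82 and 6.01 CPM, and 3 of these 4 pups lay above all control females (2.28 to 3.89 CPM). The log2 fold change was 0.64 ± 0.22 (SE; 95% interval 0.19 to 1.09; unadjusted p = 0.00761, adjusted p = 0.925, edgeR), and 0% of 16992 genes passed by edgeR (694 had an unadjusted p under 0.05, and DESeq2 called 1 gene, no receptor). In BPA0.5 males (0.0434% of 16139 genes passed) and in the sex by BPA5 interaction (0.0405% of 17282), no receptor had an unadjusted p under 0.05.

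The controls of the 2 routes were compared within each sex. In CONF against CONSC, 8 receptors could be tested in males (Htr1f fell under the filter) and 9 in females, and none had an unadjusted p under 0.05. The largest difference was that of Htr2a in females, with a mean of 2.46 CPM in CONF and 1.44 CPM in CONSC and a log2 fold change of 0.84 ± 0.44 (SE; 95% interval -0.12 to 1.80; adjusted p = 0.85, edgeR). Over all genes, 0.013% of 15387 passed in males and 0% of 16618 in females (edgeR). In females 4.29% of genes had an unadjusted p under 0.05, and DESeq2 called 0.

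In control females against control males, 2 receptors passed the adjusted threshold. Htr1a had 1.47 to 3.18 CPM in the 10 control females (median 2.48) and 0.9748 to 2.48 CPM in the 9 control males (median 1.61), a log2 fold change of 0.60 ± 0.18 (SE; 95% interval 0.22 to 0.97; adjusted p = 0.014, edgeR). Htr6, a Gs-coupled receptor abundant in striatum and hippocampus, had 1.53 to 6.80 CPM (median 2.49) in females and 0.998 to 3.25 CPM (median 1.91) in males, a log2 fold change of 0.73 ± 0.26 (SE; interval 0.20 to 1.26; adjusted p = 0.0329, edgeR). The sexes overlapped for both genes. This was a share of 2 in 9 in a contrast where 30.9% of 15763 genes passed, and DESeq2 also called 2 receptors. The paper reports a repeat of the sequencing of female samples, and the labels give no sequencing batch. Of the control libraries, 9 of males and 5 of females had the first name form, and 1 and 6 the second. A batch shared with sex therefore cannot be told apart from sex.

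Only libraries of the first name form (5 of females and 9 of males) gave log2 fold changes of 0.41 for Htr1a (adjusted p = 0.284) and 0.91 for Htr6 (adjusted p = 0.0759, edgeR), and neither passed. Htr6 lost its call when any of 6 pups was left out (adjusted p = 0.0551 to 0.0653, edgeR). These were the females CONSC 9-1x, with 6.80 CPM, and CONF N4-3x and the males CONF N3-4y, CONF N5-2y, CONSC 10-2y and CONSC 8-4y. Of the 7 striatal markers none passed between the sexes. Their sums were 152 to 1128 CPM in females (median 228) and 103 to 539 CPM in males (median 348). Of the 6 CA3 pyramidal cell markers 4 were higher in females and passed, with sums of 1482 to 2692 against 1382 to 2008 CPM. Of the 8 interneuron markers, 3 were higher in females and passed. The endothelial markers, the list most closely related to Htr1a over all pups, summed to 114 to 141 CPM in females and 90.0 to 113 CPM in males, and 1 of 5 (Cldn5, of tight junctions, log2 fold change 0.52) passed. These counts stand beside 30.9% of all genes. Genes of other lists passed as well, among them Wfs1 and Pou3f1 of CA1 and Olig1 and Mbp of the oligodendrocyte lineage, higher in females. Pdgfra of the oligodendrocyte lineage and Gja1 and Slc1a3 of astrocytes passed and were lower. The part of the listed cells in the receptor differences was not tested.

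The same contrast was run in the treated pups of each high dose, after the values had been seen. In Aro5 pups the log2 fold changes of females against males were 0.48 ± 0.22 for Htr1a and 0.74 ± 0.35 for Htr6 (adjusted p = 0.085 and 0.0983, edgeR). In these pups Htr2c was lower in females, 30.1 to 52.7 CPM (n = 5) against 39.8 to 99.2 CPM (n = 6), at -0.71 ± 0.20 (adjusted p = 0.00728, edgeR), the only receptor to pass there by edgeR, where 30.3% of genes passed (DESeq2 called 2 receptors). Htr2a was at -1.08 ± 0.44 in these pups (adjusted p = 0.0534, edgeR). In BPA5 pups the values were 0.53 ± 0.22 for Htr1a and 0.51 ± 0.37 for Htr6 (adjusted p = 0.15 and 0.462, edgeR; 5.55% of genes passed and no receptor did). In CPF3 pups Htr1a had a log2 fold change of -0.01 ± 0.23 (SE; 95% interval -0.48 to 0.46) and Htr6 one of 0.89 ± 0.37 (interval 0.14 to 1.64), with adjusted p values of 0.989 and 0.103 (edgeR; 12.3% of genes passed and no receptor did). Htr4 was at -0.60 ± 0.26 there (adjusted p = 0.123, edgeR).

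**Figure D3:**
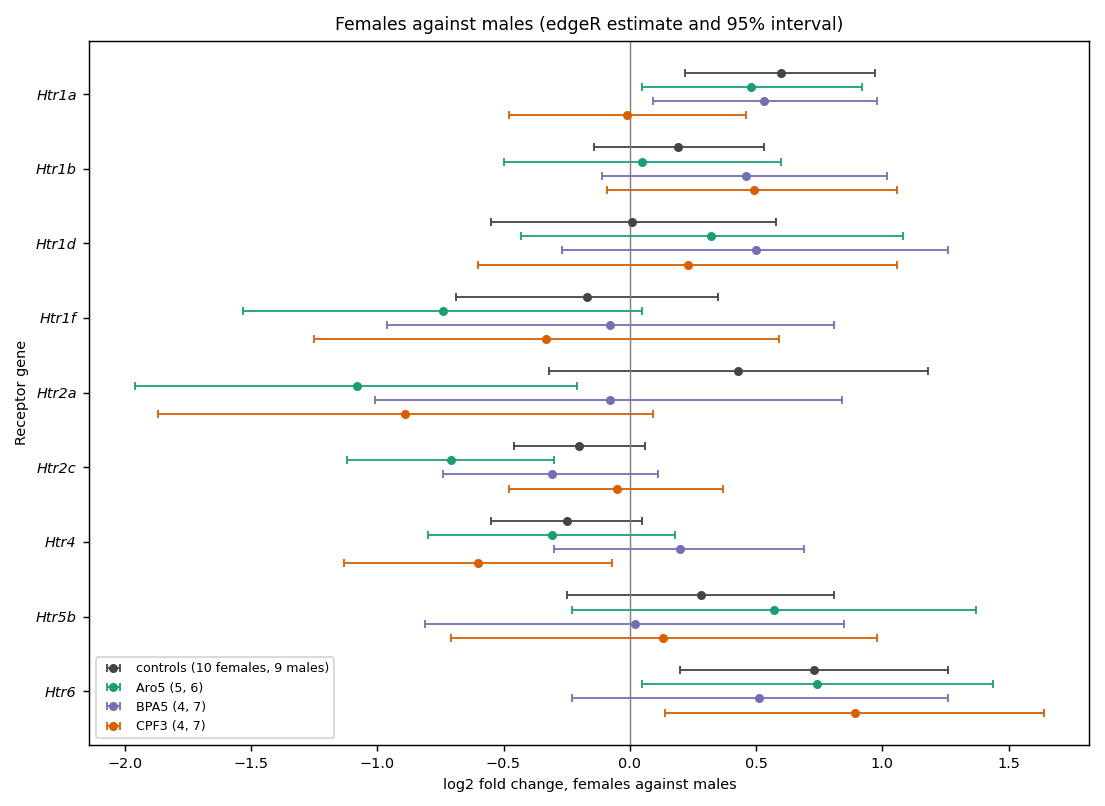
Log2 fold change of females against males for each detected receptor (edgeR), with its 95% interval, in control, Aro5, BPA5 and CPF3 pups (numbers of females and males in the legend). Htr6 lies above 0 in all 4 sets, and Htr1a in controls, Aro5 and BPA5 pups but not in CPF3 pups, where it is -0.01.

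Because the dissected block included some neocortex and could hold other neighbouring tissue, receptor levels were compared with 14 lists of marker genes, across the 64 pups and as deviations from the group means on the log2(CPM + 1) scale. Of 126 relations, 66 had an adjusted p under 0.05 in a permutation test within groups (100000 resamples, Benjamini-Hochberg adjustment over the 126), 39 of them positive. Pups of 1 litter entered as separate samples, and all values of a pup share its library. The share of all expressed genes that would pass with these lists was not computed. The count is therefore not a result about receptors in particular. Markers from outside the hippocampus were present in all pups: Tcf7l2, of the thalamus, had a mean of 365 CPM, Ppp1r1b, of the striatum, 111 CPM, Tle4, of deep neocortical layers, 102 CPM, and Ttr, of the choroid plexus, 2314 CPM. Of the hippocampal markers, Prox1 of the dentate gyrus had 104 CPM, Mpped1 of CA1 315 CPM and Nnat, most abundant in the CA3 list, 1452 CPM, while Fibcd1 of CA1 was at 0.

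Htr6 followed the striatal list most closely of all pairs, with r = 0.84 (rho = 0.81, n = 64, adjusted p = 8.4e-05 by permutation for each), 0.81 without the 2 pups farthest from the median of the list, 0.83 in males and 0.86 in females. It also rose with the interneuron list (r = 0.73) and fell with the habenular list (r = -0.60). Htr5b took the opposite course, with r = -0.78 for the striatal list (rho = -0.76, adjusted p = 8.4e-05 by permutation for each, -0.75 without the 2 farthest pups), 0.73 for the habenular list and 0.70 for the thalamic list. Htr4 followed the thalamic list with r = 0.72 (rho = 0.70, adjusted p = 8.4e-05 by permutation for each; 0.67 without the 2 farthest pups), and the habenular list with r = 0.71.

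Htr2a followed the neocortical list, with r = 0.69 (rho = 0.72, n = 64, adjusted p = 8.4e-05 by permutation for each; 0.66 without the 2 farthest pups), and the CA1 list, with r = 0.65. It ran against the thalamic (r = -0.53) and dentate gyrus lists (r = -0.52). Htr1f also followed the neocortical list (r = 0.56, rho = 0.61) and, to the same degree, the striatal list. Htr2c had its closest relation with the choroid plexus list (r = 0.57, rho = 0.56; 0.62 without the 2 farthest pups). Within libraries of the first and the second name form (26 pups each, no treated females) the neocortical relation of Htr2a was 0.76 and 0.59, the striatal relation of Htr6 was 0.85 in both, and the thalamic relation of Htr4 was 0.54 and 0.80.

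Htr1d (r = 0.60) and Htr1b (r = 0.50) were most closely related to the interneuron list, whose most abundant gene was Gad1. Their relations with the striatal list were nearly as close (r = 0.56 for Htr1d and 0.49 for Htr1b), and the interneuron and striatal lists were not tested apart. Htr1a was related most closely to the endothelial list (r = 0.53), and inversely to the striatal list (r = -0.52). Relations with the list of raphe serotonin neurons were 0.67 for Htr4 and for Htr5b, but the defining transcription factor of these cells, Fev, was near 0 (mean 0.0192 CPM), and Tph2 had a mean of 1.54 CPM. Htr5b ran against the neocortical (r = -0.70) and choroid plexus lists (r = -0.61). The CA3 list had its largest |r| with Htr1f (r = -0.44), followed by Htr2a (-0.43) and Htr1a (0.41). The other lists had their largest |r| at 0.54 (microglia, most abundant gene Csf1r), 0.53 (oligodendrocyte lineage, Pdgfra) and 0.32 (astrocytes, Aqp4).

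**Figure D4:**
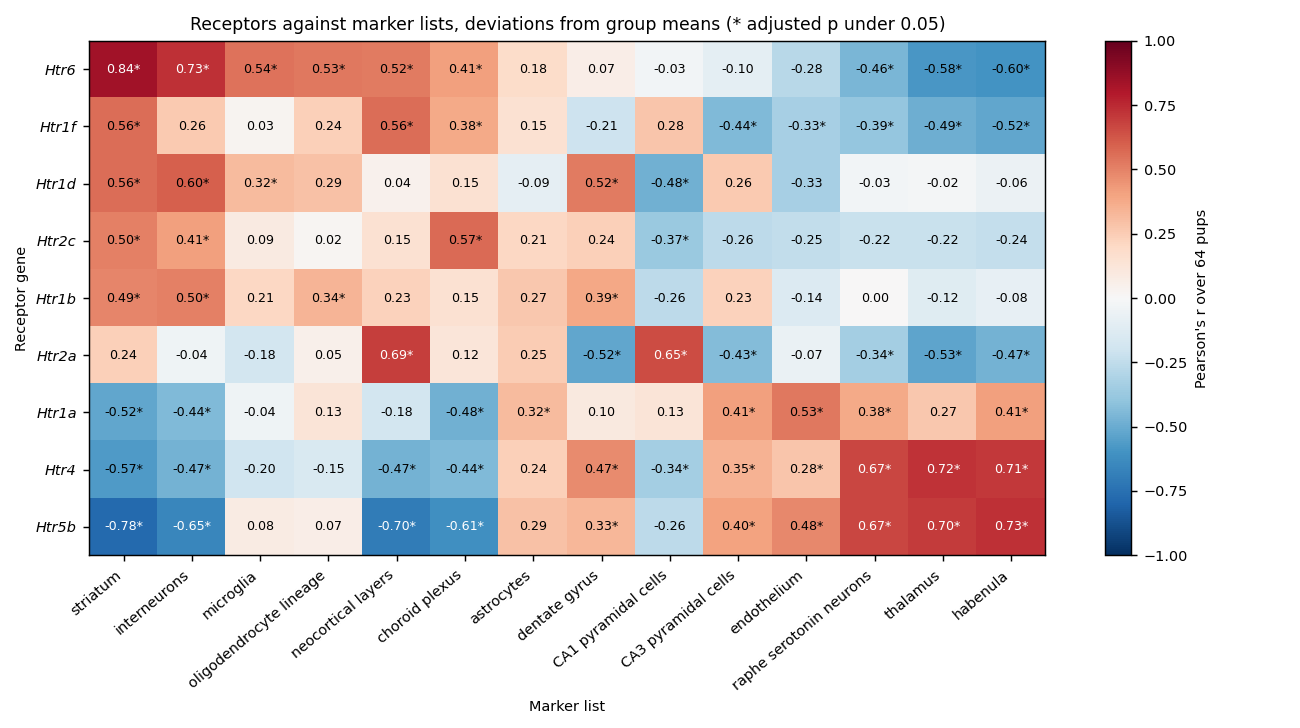
Pearson's r of each receptor (rows, ordered by their r with the striatal list) with each marker list (columns, ordered by their r with Htr6) over 64 pups, from deviations of log2(CPM + 1) from group means. Asterisks mark adjusted p values under 0.05 in the permutation test. Htr6 and Htr5b, at the top and bottom rows, have r values of 0.84 and -0.78 with the striatal list.

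**Figure D5:**
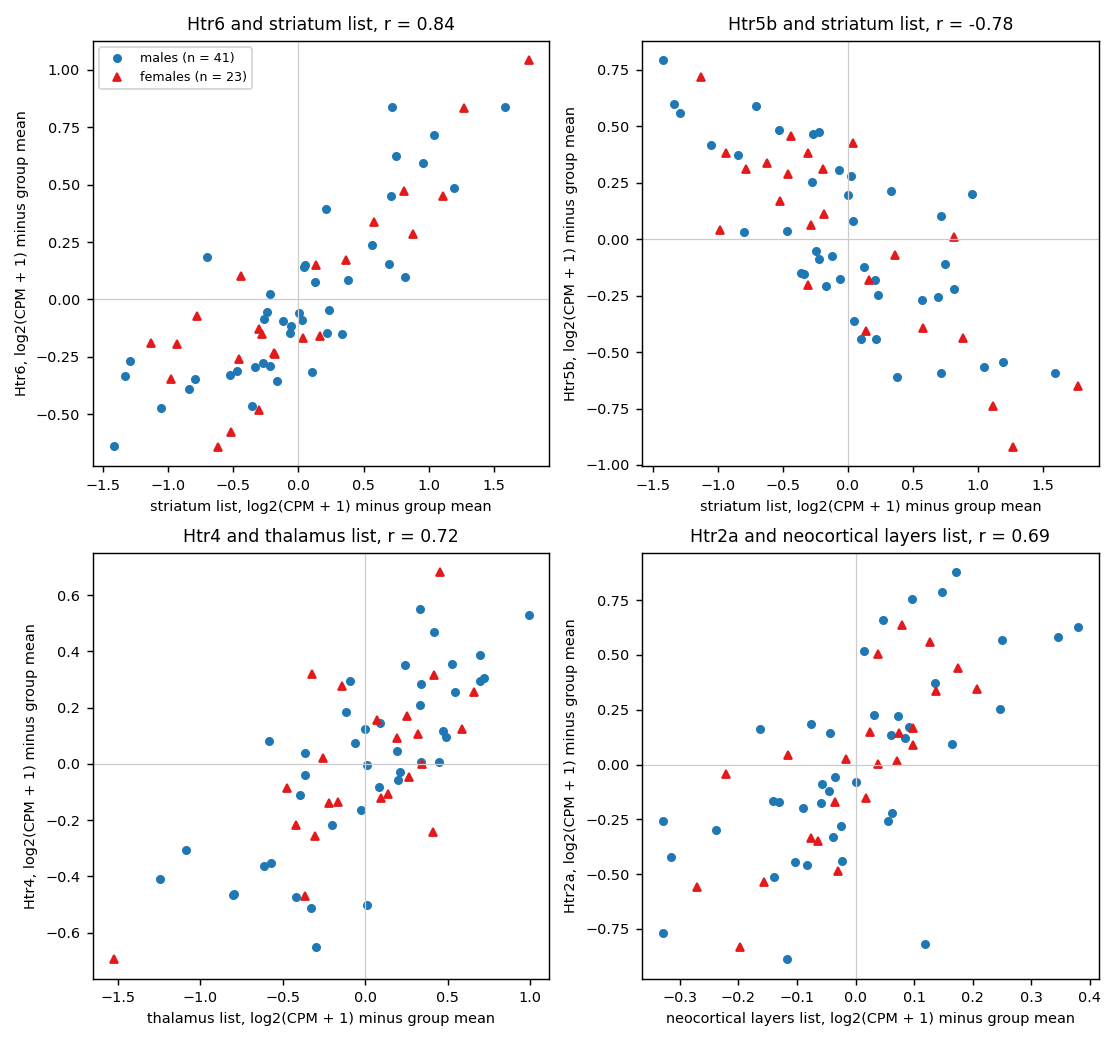
Deviations from the group mean on the log2(CPM + 1) scale, 1 point per pup (circles, 41 males; triangles, 23 females), for Htr6 and Htr5b against the striatal list, Htr4 against the thalamic list and Htr2a against the neocortical list. Points of both sexes lie along the same direction in each panel, with r = 0.84, -0.78, 0.72 and 0.69.

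Among the 36 pairs of detected receptors, 19 were correlated over the 64 pups at an adjusted p under 0.05 (permutation test within groups, adjusted over the 36 pairs), 13 of them positively. The share among pairs of other genes was not computed. The closest pairs were Htr1b and Htr2c (r = 0.66, rho = 0.66), Htr1f and Htr2a (r = 0.63, rho = 0.63) and Htr1b and Htr1d (r = 0.61, rho = 0.60), each with an adjusted p of 0.00018 for r by permutation. Without the 2 pups farthest from the median of the first gene the r values were 0.69, 0.56 and 0.55. Htr5b and Htr6 ran in opposite directions (r = -0.59, rho = -0.53; -0.52 without the 2 farthest pups), as did Htr4 and Htr6 (r = -0.50), while Htr4 and Htr5b varied together (r = 0.55, rho = 0.52).

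The genes most like each receptor were read from the same deviations, over all genes with a mean of at least 1 CPM and with no test. For Htr6 they were Asb2 (r = 0.88), Neu2 and Adcy5 (0.87 each), the last an adenylyl cyclase abundant in striatum. For Htr2a they were Fras1, Caln1 and Ipcef1 (0.88 each). For Htr5b they were Bdnf, the neurotrophin (0.87), Lix1 and Olfm1 (0.86 each), and for Htr4 they were Arhgap26 (0.85), Btbd3 (0.82) and Glra2 (0.81). Htr1b was most like the kappa opioid receptor gene Oprk1 (0.84), Gpr101 and Pcdh10 (0.83 each), Htr1d like Prima1 (0.85), Krt77 (0.82) and LOC103694327 (0.80), and Htr2c like Vat1l, Dcdc2 (0.83 each) and Vstm2a (0.81). Htr1f (Gnb4, Gucy1b3 and Tmem196, 0.76 each) and Htr1a (Slc36a1, 0.73; Bsn, 0.72; Sdk2, 0.71) had less similar partners.

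Other genes of the serotonin system were read from 3 lists. In none of the 16 contrasts of treatment, interaction or route did any gene of these lists pass the adjusted threshold. Of the other serotonin receptors, Htr3a (mean 7.46 CPM) and Htr5a (5.68 CPM) were tested, while Htr2b (0.0758 CPM) and Htr3b (0.0269 CPM) were near 0. Among 8 genes of serotonin synthesis, transport and breakdown, the plasma membrane transporter Slc6a4 had a mean of 13.8 CPM (0.419 to 47.1) and the vesicular transporter Slc18a2 one of 14.8 CPM (1.80 to 36.5).

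In CPF3 males the 2 smallest p values of the lists were those of Tph1, the tryptophan hydroxylase of the pineal gland and the periphery, and of Gnal, the G protein alpha subunit of striatal neurons. Tph1 had 35.7 CPM in the CPF3 male 36-3y and 0.302 to 0.729 CPM in the 6 others, against 0.0812 to 1.27 CPM in controls, so that its log2 fold change of 3.18 ± 0.80 (SE; adjusted p = 0.105, edgeR) became -0.19 without that pup. Gnal had 40.6 to 126 CPM (median 72.0) against 85.2 to 169 CPM in controls (median 128), at -0.73 ± 0.23 (SE) on the log2 scale (adjusted p = 0.235, edgeR). In the same pups the striatal list summed to 122 to 578 CPM (median 138) against 103 to 539 CPM in controls (median 348), of which 3 of 7 genes had an unadjusted p under 0.05. None of them passed, and its part in the level of Gnal was not tested. In CPF1 males the smallest p values were those of Tph1 (log2 fold change -0.61 ± 0.48) and Arrb2, a beta-arrestin (0.12 ± 0.10), both with an adjusted p of 0.997 (edgeR). In CPF3 females they were those of the monoamine oxidase gene Maob (-0.25 ± 0.13, adjusted p = 0.582) and of Ddc, which decarboxylates the serotonin precursor (-0.24 ± 0.14, adjusted p = 0.632, edgeR).

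Between control females and males, 5 of the listed genes passed. Gna11 (log2 fold change 0.21), Gnai2 (0.18) and Arrb2 (0.26), of G proteins and their partners, were higher in females and Gnai3 (-0.20) was lower, of 20 genes tested. Of 7 tested genes of serotonin synthesis, transport and breakdown, Maob (-0.27) was lower in females. These were counts of 4 in 20 and 1 in 7 beside 30.9% of all genes. The same contrast in Aro5 pups had Gnai2 and Arrb2 higher and Gnai3, Plcb1 and Maoa lower in females. In BPA5 pups Arrb2 was higher, and in CPF3 pups Gnai2, Arrb2 and Gnao1 were higher and Tph1 lower. The Tph1 value of that contrast (-3.63) includes the CPF3 male 36-3y.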

How the data were processed

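RNA of dorsal hippocampus was sequenced from poly-A-selected libraries. The authors aligned reads to Rnor_6.0 with STAR, counted them per gene with featureCounts and deposited raw counts. Versions, strand setting and handling of multiple matches are not given in the sources used here, so reads shared with paralogs or overlapping genes cannot be told apart. Library totals had a median of 20740650 counts. The genome build's coordinates and transcript lengths were not used here.

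Counts of the 2 libraries of 2 pups were summed. Fits used edgeR 4.0.16 (TMM, filterByExpr, quasi-likelihood F test, Benjamini-Hochberg adjustment over all genes tested, threshold 0.05) in R 4.3.3, run separately on females, males of the high and of the low doses, both sexes, control sexes and control routes. The SE is the size of the log2 fold change divided by the square root of F. Marker list scores are means of log2(CPM + 1) over genes with a mean of at least 1 CPM. The plan named 45 pairs of receptors, but 36 could be computed without Htr7. Alternatives used DESeq2 1.42.0, limma 3.58.1, other filters and size factors, the window from 10.30 to 13.20 h, name forms, same-route controls, litter as a block, and each pup left out. The fits and correlation tests were tested on simulated data. Python 3.11.15, numpy 2.4.6 and pandas 2.3.3 were used.

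The receptors, marker lists, tests and rules for naming genes were chosen with earlier results of these data known. All receptors are named, with fold changes where the unadjusted p was under 0.05 or chlorpyrifos was compared. Of the 3 other serotonin lists, genes are named that passed or had the 2 smallest p values with chlorpyrifos. P values measure the spread between pups, some of which were littermates.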

Additional observations from a re-analysis of the deposited data

Results flagged for a closer look

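In 12 of 117 sets of 1 receptor and 1 group, the highest pup stood apart from the others by Dixon's criterion at the 95% level, where chance gives about 5.85 of 117. No lowest pup did, and levels were on the linear CPM scale. In 3 groups the same pup stood apart in this way for 2 receptors. Pup BPA5 81-1y had 23.9 CPM of Htr1b (others 5.82 to 11.3) and 4.03 CPM of Htr6 (others 1.26 to 2.10). Female CONSC 9-1x had 3.41 CPM of Htr1d (others 0.779 to 1.45) and 6.80 CPM of Htr6 (others 1.53 to 2.60). CPF3 male 45-1y had 3.44 CPM of Htr6 (others 1.00 to 1.52) and 1.21 CPM of Htr1f (others 0.358 to 0.701). Female CPF3 38-5x had 5.61 CPM of Htr6 (others 1.66 to 2.32). All 4 of these pups had the highest summed striatal markers of their group, at 347, 1128, 578 and 737 CPM, and the part of that tissue in these levels was not tested.

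Aro5 male 120-2y had 2.84 CPM of Htr1f (others 0.735 to 1.38). Htr2c stood apart in Aro0.5 male 105-5y, at 58.8 CPM (others 37.5 to 41.1), and in BPA0.5 male 72-4y, at 70.6 CPM (others 50.2 to 51.4). For Htr5b, Aro0.5 male 98-8y had 4.81 CPM (others 2.24 to 2.63) and CONSC male 8-4y 2.91 CPM (others 1.22 to 1.39). Both had the lowest striatal sums of their group, 91.7 and 103 CPM.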

How the results depend on the processing

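No receptor passed the adjusted threshold in any contrast of treatment, interaction or route under other size factors, DESeq2 or either filter. None did with same-route controls, run for treated against control pups, or by name form, run in low-dose males and between the control routes. In high-dose males the name form fit in effect used 1 control library. Those that passed under other alternatives were Htr2a in Aro5 males within the time window (1 receptor, log2 fold change 1.85) and Htr5b in Aro0.5 males without control CONSC 8-4y (0 to 1 receptors over left-out pups). Between control sexes, 1 receptor passed within the time window, 0 in libraries of the first name form and 1 to 2 with each pup left out. In Aro5, BPA5 and CPF3 pups, tried after the data had been seen, 1, 0 and 0 passed. Litter as a block (limma) left 2 called between control sexes and 0 in the interactions. It was not run for high-dose males and for females, where too few litters held 2 pups.

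Signs turned in some chlorpyrifos estimates, none of which passed. With name form as a covariate CPF3 males had -0.16 for Htr1a, -0.01 for Htr2a and 0.08 for Htr4. Htr1d in CPF1 males was -0.01 by DESeq2, -0.14 within the time window, -0.09 with same-route controls and -0.02 under either use of name form, and Htr4 was 0.01 with same-route controls. In CPF3 females Htr2c was -0.03 with same-route controls, and Htr5b was 0.14 and Htr6 0.02 within the time window. Htr1a between the sexes was -0.01 in CPF3 pups. With each pup left out, CPF3 males had -0.38 to 0.10 for Htr1f, -0.14 to 0.04 for Htr4 and -0.06 to 0.26 for Htr5b. CPF1 males had -0.21 to 0.30 for Htr1d, -0.15 to 0.13 for Htr4 and -0.26 to 0.39 for Htr6. CPF3 females had -0.04 to 0.35 for Htr1b, -0.73 to 0.05 for Htr1f, -0.22 to 0.15 for Htr2c, -0.64 to 0.29 for Htr5b and -0.49 to 0.14 for Htr6.

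Of the 126 relations with marker lists, 34 passed in females alone, 30 in libraries of the first and 21 of the second name form. Of the 36 pairs of receptors, 12 passed in males alone and 7 in females alone. Fewer pups entered these, and other causes were not tested. Htr1f had 2 to 48 counts per pup, and the size of difference that can be detected at this depth was not tested.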
